A study of Mus musculus with 12 samples.

Results

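The genes that encode ligands of the epidermal growth factor (EGF) receptor family were followed across 3 histone marks in mouse intestinal organoids given arachidonic acid (AA). The members are Ereg, Areg, Epgn, Btc, Hbegf, Tgfa, Egf and Nrg1, which are 8 of 21883 protein-coding genes with a RefSeq span on the mm10 build. They were chosen by name, with earlier results of these data known. A peak was counted for a member when it overlapped that span extended by 1 kb on either side, which gave 68 of 274593 peaks over the 3 marks and the 2 peak callers, SEACR and MACS2. Organoids are cultures grown in Matrigel from isolated crypts. One group received 25 µM AA, the omega-6 fatty acid from which prostaglandins are made, and the other received vehicle, both for 6 days. All organoids shared a medium with recombinant mouse EGF, Noggin, R-spondin, the GSK3 inhibitor CHIR-99021 and the ROCK inhibitor Y-27632, so an EGF receptor ligand was supplied to both groups. The design text of the series names Ptger knockout organoids, while the labels of these libraries name no genotype and no strain, sex or age of the donor mice. In CUT&RUN an antibody directs a nuclease to release the DNA beside a mark, and each mark had 2 AA and 2 vehicle libraries. Whether those 2 libraries are separate cultures or animals is not stated, and p-values cover no more than the differences between them, which could be technical.

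Ligands of this family are made as membrane-bound precursors that proteases such as ADAM17 cut free, and the released EGF-like domain makes receptors of the family pair and signal. Ereg, Areg, Epgn, Btc, Hbegf, Tgfa and Egf encode ligands of EGFR, and some of these also bind ERBB4, whereas Nrg1 encodes neuregulin 1, which binds ERBB3 and ERBB4. In the intestine, EGF receptor signals drive growth of crypt cells, and epiregulin and amphiregulin are known from epithelial repair. H3K4me3 marks active promoters, H3K27ac active promoters and enhancers, and H3K27me3 is the repressive mark of Polycomb complex 2.

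Scores are the authors' mean coverage per base over a peak, scaled by 1 factor per library, and every peak has a score in all 4 libraries of its mark. The tested peaks numbered 58548 for H3K4me3, 62547 for H3K27ac and 105301 for H3K27me3 in the SEACR set. The H3K4me3 AA libraries were the shallower ones, with a median raw coverage of 1.37 and 1.46 per base, against 3.38 and 2.35 in the vehicle libraries. AA replicate 2 of H3K4me3 stood apart on the first principal component (48.8% of the variance). The Spearman correlation over H3K4me3 SEACR peaks was 0.716 between the AA libraries and 0.811 between the vehicle libraries. Between an AA and a vehicle library it was 0.643 to 0.820, so the AA replicates were less alike than some pairs across the groups. All 10 intestinal epithelial markers, among them Epcam, Vil1 and Cdx2, had an H3K4me3 peak at a gene end, as did 2 of 6 fibroblast, 2 of 5 blood cell and 1 of 5 endothelial and glial markers; those without one included Col1a2, Col3a1, Pdgfrb and Dcn (fibroblast), Ptprc and Cd3e (blood), and Pecam1, Cdh5 and Sox10 (endothelium and glia). The summed H3K4me3 score of the epithelial markers was 10.04 and 8.72 in AA libraries and 8.20 and 7.75 in vehicle libraries, and that of the fibroblast markers with a peak was 0.877 and 0.647 in AA and 0.8997 and 1.07 in vehicle. For the blood markers the sums were 0.205 and 0.250 in AA and 0.275 and 0.346 in vehicle, and for the endothelial and glial ones 0.162 and 0.101 in AA and 0.301 and 0.226 in vehicle. The part of these differences in the results below was not tested. A bulk library cannot tell more marked cells from more mark per cell.

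The first comparison asked where H3K4me3 at the ligand genes differed between AA and vehicle. The mark rose in AA at the gene ends of Ereg (epiregulin), Areg (amphiregulin) and Btc (betacellulin), which lie near one another on chromosome 5, and no other ligand gene passed the test. The ratio of mean scores, AA over vehicle, was 2.53 at Ereg, 1.94 at Areg and 1.48 at Btc. Of the 18 H3K4me3 peaks at ligand genes in the SEACR set, 3 were called higher and 0 lower at a limma adjusted p of 0.05, whereas 1.54% of all H3K4me3 peaks were called higher and 1.38% lower. In the MACS2 set 4 of 12 were called higher and 0 lower, against 5.22% and 1.09% of all. Taking the strongest peak of each gene, 3 of the 7 ligand genes with a peak were called higher, against 5.36% of all genes called higher and 1.36% lower. Because the genes were chosen with earlier results of these data known, these shares are descriptions and do not test the set. Epgn, the gene of epigen, had no H3K4me3 peak. Data were also simulated, with normal noise whose spread depended only on the level of a peak. In them the false share of the calls exceeded the threshold of 0.05 for all 3 marks, so the adjusted p can understate that share.

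Ereg scored 0.669 and 0.599 in the AA libraries and 0.269 and 0.232 in the vehicle libraries, in a SEACR peak on chromosome 5 from 91073506 to 91079121 (mm10). Both AA libraries were high and the groups did not overlap. The change was 1.26 ± 0.25 on the log2(score + pseudocount) scale (SE, limma adjusted p = 0.000163), on means of 0.634 ± 0.05 in AA and 0.251 ± 0.0262 in vehicle (SD, n = 2 libraries each). The peak covers the lower-coordinate end of Ereg, which spans 91074617 to 91093649, and also the upper-coordinate end of the lncRNA gene Gm19610, which overlaps Ereg there; CUT&RUN has no strand, so the 2 genes cannot be told apart. MACS2 split the region into 2 peaks. The one on the gene end, from 91074573 to 91075372, scored 1.57 and 1.29 in AA and 0.514 and 0.349 in vehicle, and was called higher (1.43 ± 0.28, SE; limma adjusted p = 0.00345). The one inside the gene, from 91075805 to 91076387, scored 1.11 and 1.55 in AA and 0.713 and 0.657 in vehicle, and did not pass (0.80 ± 0.26, SE; limma adjusted p = 0.0578).

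Areg lies 45.9 kb beyond Ereg, from 91139599 to 91148432, and its SEACR peak, from 91138665 to 91145001, covers the annotated start. Its H3K4me3 score was 0.941 and 0.857 in AA and 0.508 and 0.420 in vehicle, again with both AA libraries above both vehicle libraries. The change was 0.92 ± 0.19 (SE, limma adjusted p = 0.000345). In the MACS2 peak at the start, from 91139459 to 91141114, the scores were 2.08 and 1.96 in AA and 0.954 and 0.864 in vehicle, a change of 1.03 ± 0.20 (SE, limma adjusted p = 0.00299).

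Btc encodes a ligand of both EGFR and ERBB4 and spans 91357261 to 91402994, with its annotated start at the upper coordinate. It had the highest H3K4me3 score among the ligand genes, 1.602 and 1.32 in AA and 0.982 and 0.989 in vehicle, in a peak from 91400026 to 91403570. The 2 vehicle libraries were nearly equal and both lay below the AA libraries, a change of 0.55 ± 0.13 (SE, limma adjusted p = 0.00431). MACS2 called 2 of the 3 peaks in this region higher. The one at the start scored 2.67 and 2.40 in AA and 1.76 and 1.61 in vehicle (0.55 ± 0.15, SE; limma adjusted p = 0.0296), and the one from 91401018 to 91401965 scored 2.71 and 2.08 in AA and 1.47 and 1.55 in vehicle (0.61 ± 0.16, SE; limma adjusted p = 0.0261). The smallest, from 91400691 to 91400906, had 1.94 and 0.914 in AA and 0.846 and 1.06 in vehicle, so the groups overlapped (limma adjusted p = 0.314).

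These 3 calls were kept after centring of each library on its median and after quantile normalization, although quantile normalization left Btc a change of 0.24 (limma adjusted p = 0.0364) and ended both Btc calls in the MACS2 set. Without AA replicate 1 the changes were 1.18 at Ereg, 0.86 at Areg and 0.42 at Btc. Without AA replicate 2 they were 1.34 at Ereg, 0.99 at Areg and 0.69 at Btc. At the 4 called MACS2 peaks, leaving out each library in turn gave changes from 0.43 to 1.63, and not every call was kept. Under limma without trend and robust, 0 of these MACS2 calls were kept (adjusted p from 0.215 to 0.280). The 3 SEACR calls ended without vehicle replicate 1 or 2 (limma adjusted p from 0.325 to 0.884, with 36 and 32 H3K4me3 peaks called in all) and under limma without trend and robust (adjusted p from 0.459 to 0.515, with 0 peaks called and 6259 at an unadjusted p under 0.05), while their changes stayed between 0.55 and 1.35. The scaling bears on the comparison: before it, the coverage per base was 6.14 and 5.89 in AA and 5.24 and 3.04 in vehicle at Ereg, 8.64 and 8.43 in AA and 9.88 and 5.51 in vehicle at Areg, and 14.7 and 13.0 in AA and 19.1 and 13.0 in vehicle at Btc. Only at Ereg did the unscaled AA values lie above both vehicle values.

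**Figure D1:**
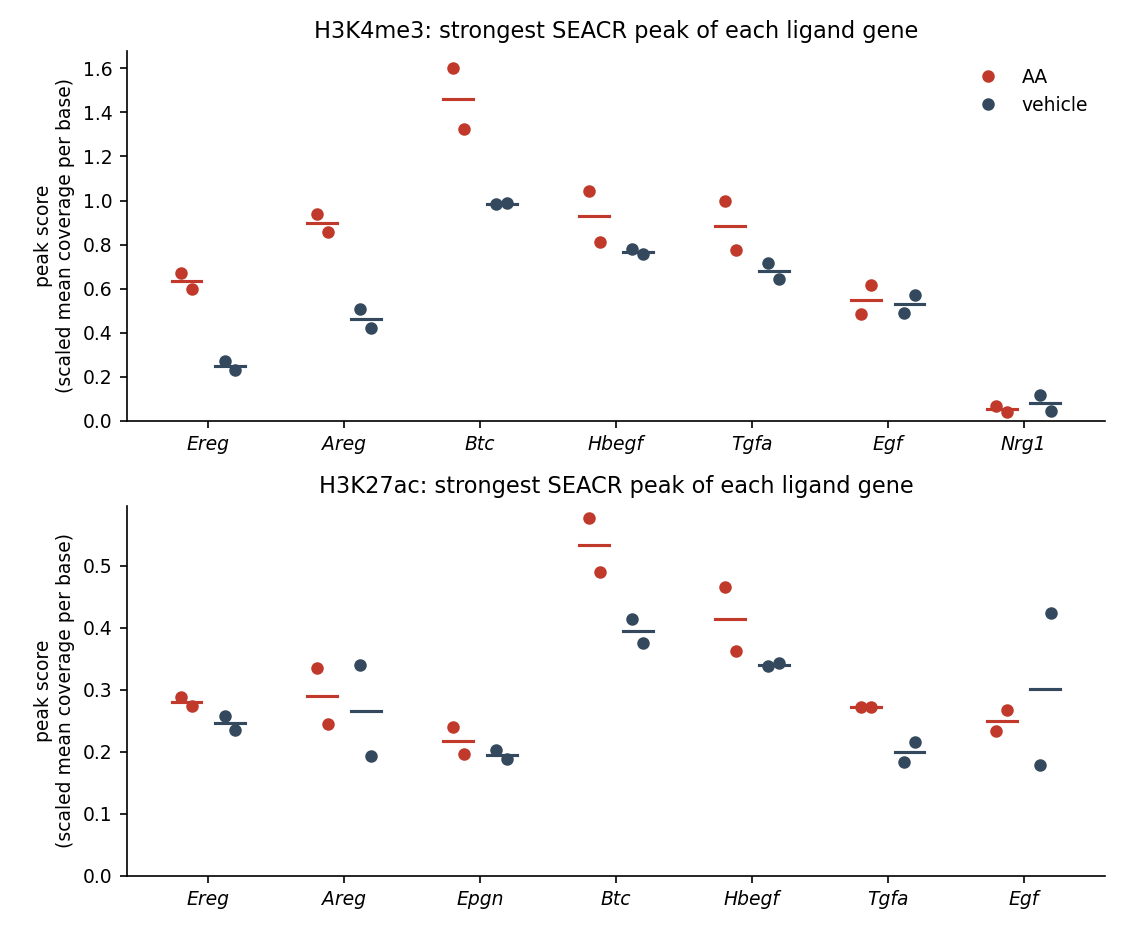
Peak score (scaled mean coverage per base) at the strongest SEACR peak of each ligand gene, for H3K4me3 (top) and H3K27ac (bottom). Points are single libraries, AA in red on the left and vehicle in blue on the right, and lines are means of 2 libraries. In H3K4me3 the groups lie farthest apart, relative to their level, at Ereg and Areg; Epgn has no H3K4me3 peak and Nrg1 no H3K27ac peak.

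H3K4me3 changes varied with the level of a peak, so the ligand genes are set beside peaks of a like level. With all H3K4me3 SEACR peaks in 10 equal bins by mean score, Ereg and Areg fall in bin 9, where the median change was 0.13 and 1.95% of peaks were called higher. Btc falls in bin 10, the strongest, where the median change was 0.28 and 10.4% were called higher. Hbegf and Tgfa fall in bin 10 as well, and their changes lay within its quartiles of 0.18 and 0.38.

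**Figure D2:**
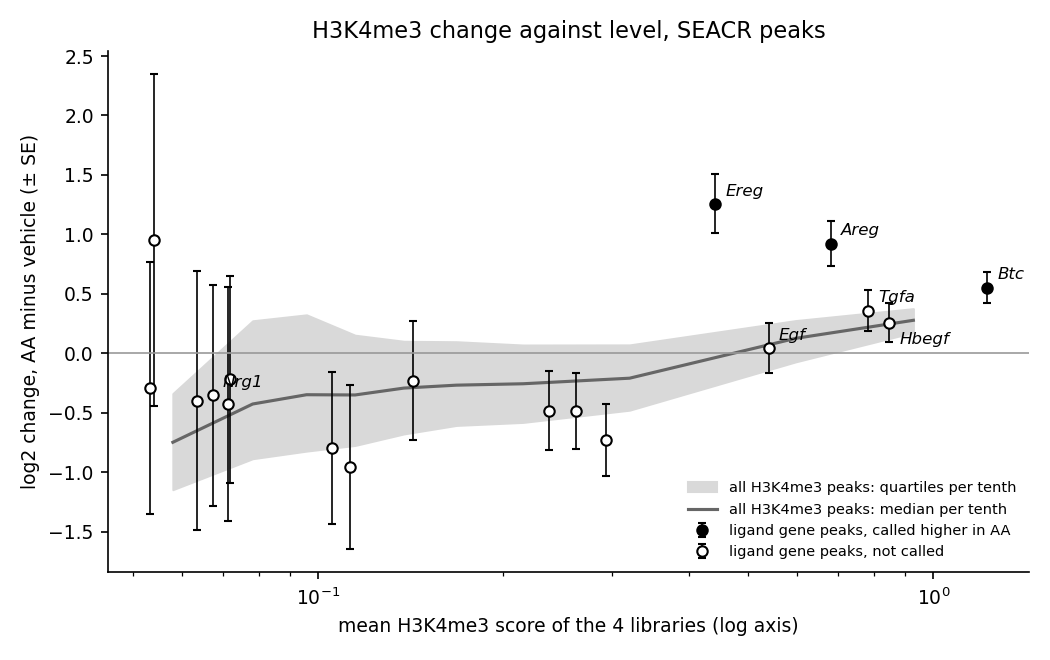
Log2 change in H3K4me3, AA minus vehicle (± SE), against the mean score of the 4 libraries (log axis) for the 18 ligand gene SEACR peaks, with the strongest peak of each gene named. Filled points were called higher in AA; the line and band are the median and quartiles of all H3K4me3 peaks in 10 bins by level. Ereg and Areg lie above the band, Tgfa by its upper edge, and Hbegf and Egf within it. Btc lies to the right of where the band ends, with a change above the upper quartile of its bin.

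Hbegf, the gene of heparin-binding EGF-like growth factor on chromosome 18, scored 1.05 and 0.814 in AA and 0.780 and 0.755 in vehicle in its strongest H3K4me3 peak (36511731 to 36517670), at the upper-coordinate end. The groups did not overlap, but the change of 0.26 ± 0.16 (SE) did not pass (limma adjusted p = 0.432). A weaker peak inside Hbegf had the opposite sign, with 0.237 and 0.190 in AA and 0.369 and 0.254 in vehicle (limma adjusted p = 0.455).

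Tgfa, the gene of transforming growth factor alpha on chromosome 6, scored 0.998 and 0.773 in AA and 0.717 and 0.644 in vehicle at its start (86193534 to 86197285). The change was 0.36 ± 0.17 (SE, limma adjusted p = 0.259). With each library centred on its median, which moves all H3K4me3 changes up by 0.21, Tgfa (0.57, limma adjusted p = 0.0136) and Hbegf (0.47, limma adjusted p = 0.0409) were called, as were 10.4% of all H3K4me3 peaks. Without AA replicate 2 both were called too, Tgfa with 0.54 (limma adjusted p = 0.00025) and Hbegf with 0.43 (limma adjusted p = 0.0021), as were 15.2% of all.

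Nrg1 spans 1084158 bp of chromosome 8 and had 2 weak H3K4me3 peaks, neither at a gene end. The stronger scored 0.0653 and 0.0417 in AA and 0.119 and 0.0436 in vehicle, and the other 0.00922 and 0.0931 in AA and 0.131 and 0.0200 in vehicle, at an unscaled coverage between 0.0847 and 2.56 per base. The groups overlapped at both, and neither passed.

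Of the 18 H3K4me3 peaks, 7 lay at a gene end or an annotated start, where 3 were called and 6 had a change above 0. The other 11 lay inside 6 genes, and 10 of them had a change below 0, with a median of -0.40 and 0 called by limma. All of the 11 fell in the 8 weaker bins by level, with mean scores from 0.0432 to 0.213 in AA and from 0.0155 to 0.312 in vehicle. Among all H3K4me3 peaks those 8 bins likewise had medians below 0, from -0.75 to -0.21. The MACS2 set did not show this split: of its 5 peaks inside ligand genes, 3 had a change above 0 and 2 below. Their median was 0.44, and 1 was called higher by limma. Over the whole table, 18.3% of H3K4me3 peaks had both AA libraries above both vehicle libraries and 30.5% had both below, against 5 and 4 of the 18 ligand gene peaks.

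The promoter sequences of Areg and Btc, at 2 of the starts where H3K4me3 rose, are shown with the motifs searched in them, from RefSeq on GRCm38.p6, 250 bases before to 50 after the start and 5′ to 3′ on the gene's strand. Capitals mark matches on either strand to the cAMP response element CRE (TGACGTCA), its shorter core TGACG, AP-1 (TGANTCA), TEAD (GGAATG), SRF (1 fixed form of the CArG box, not its variants) and the TATA box (TATAAA); the core is part of the full CRE, so the 2 overlap.
Areg, chr5:91139349-91139648, plus strand: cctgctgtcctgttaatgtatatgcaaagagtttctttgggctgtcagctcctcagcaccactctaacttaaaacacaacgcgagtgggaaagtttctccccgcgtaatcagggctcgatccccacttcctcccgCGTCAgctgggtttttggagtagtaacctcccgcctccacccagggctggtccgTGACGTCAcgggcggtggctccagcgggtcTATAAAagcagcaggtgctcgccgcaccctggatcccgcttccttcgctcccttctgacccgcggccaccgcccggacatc
Btc, chr5:91402945-91403244, minus strand: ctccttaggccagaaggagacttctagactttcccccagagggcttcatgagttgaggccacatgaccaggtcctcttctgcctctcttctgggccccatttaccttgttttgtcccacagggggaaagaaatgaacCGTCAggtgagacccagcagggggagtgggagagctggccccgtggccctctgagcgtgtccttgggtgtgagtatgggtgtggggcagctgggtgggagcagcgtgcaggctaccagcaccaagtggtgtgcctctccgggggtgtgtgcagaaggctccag

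The Areg promoter holds a full CRE whose first base lies at -61 from the start and a TATA box at -31, with a further core on the opposite strand at -115. A full CRE is present in 1.79% of the 32851 RefSeq promoters of the same length, a core in 20.8% and TATAAA in 13.6%. Btc holds only a core, on the opposite strand at -113, and Epgn, which has no H3K4me3 peak, a core at -101 and a TATA box at -86. The Tgfa promoter and both Egf promoters hold none of the 6 motifs. AP-1 (7.81% of all promoters), TEAD (14.7%) and that 1 form of the SRF element (0.0639%) matched none of the ligand gene promoters searched. Those were the promoters of Areg, Epgn, Btc, Tgfa and Egf, and those of Ereg, Hbegf and Nrg1 were not searched. Matches describe the letters of these windows and are not binding sites. The CpG count was 21 in Areg, 24 in Tgfa, 5 in Btc and 5 in Epgn, against a median of 7 over all promoters.

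Around the 3 called genes, the window from Epgn to Btc spans 377.5 kb and holds 28 H3K4me3 and 37 H3K27ac SEACR peaks, of which 23 and 28 lie outside the ligand genes. Of the 23, 1 H3K4me3 peak was called higher and 0 lower, against 1.54% and 1.38% of all H3K4me3 peaks. It is a 513-bp peak from 91101707 to 91102219, 8.06 kb beyond the upper-coordinate end of Ereg and 37.4 kb before Areg. It scored 0.431 and 0.207 in AA and 0.0677 and 0.0588 in vehicle (1.88 ± 0.45, SE; limma adjusted p = 0.00505). The call was kept without AA replicate 2 (2.37) and ended without AA replicate 1 (1.39, limma adjusted p = 0.209), without vehicle replicate 1 (1.95, limma adjusted p = 0.415) or 2 (1.81, limma adjusted p = 0.621), and without trend and robust (limma adjusted p = 0.459). No H3K4me3 MACS2 peak overlapped that 513-bp peak. Of the 8 H3K4me3 MACS2 peaks outside the ligand genes, limma called 0 higher and 0 lower, against 5.22% and 1.09% of all. Over all 23 SEACR peaks the median H3K4me3 change was -0.29. The groups did not overlap at 1 with AA higher and 4 with AA lower, against 18.3% and 30.5% of all H3K4me3 peaks. None of the 28 H3K27ac peaks between the genes was called by limma, with 2 at an unadjusted p under 0.05 (7.71% of all H3K27ac peaks). The median change of the 28 was 0.07. The groups were apart at 7 with AA higher and 3 with AA lower, against 28.5% and 10.7% of all H3K27ac peaks. Among them the peak from 91105020 to 91108185 scored 0.359 and 0.391 in AA and 0.205 and 0.243 in vehicle (0.60 ± 0.19, SE; limma adjusted p = 0.204); it was picked out after its values were seen.

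**Figure D3:**
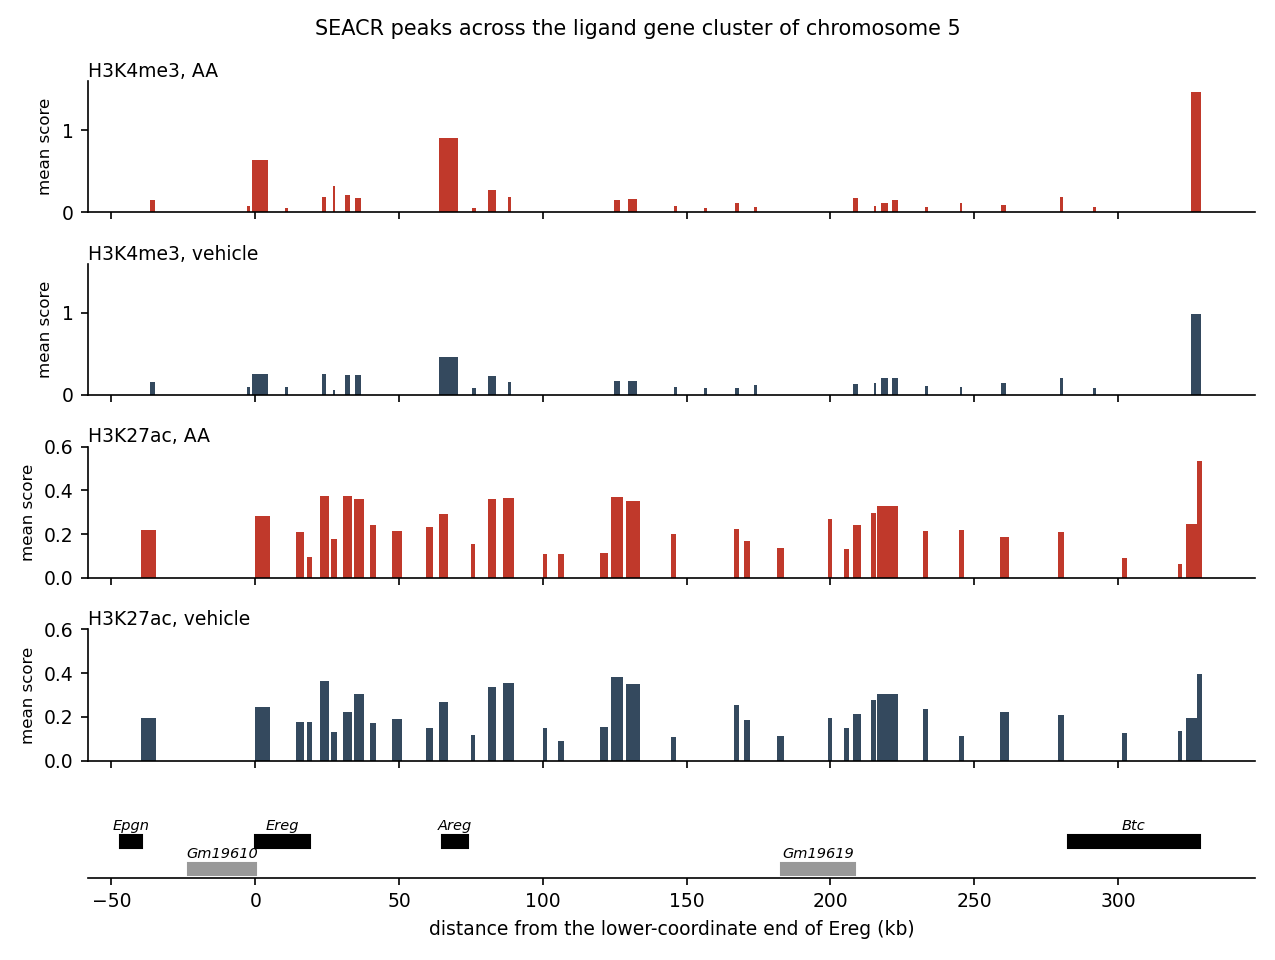
Mean score of each SEACR peak (bar width, peak length) along the chromosome 5 cluster, as distance in kb from the lower-coordinate end of Ereg, for H3K4me3 and H3K27ac, AA in red above vehicle in blue, with protein-coding genes in black and lncRNA genes in grey. H3K4me3 is highest at Btc and Areg in both groups and stands out at Ereg in AA, whereas in vehicle the Ereg peak (0.251) is level with peaks outside the genes, and H3K27ac is spread over many peaks of similar height in both groups.

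The second comparison asked where H3K27ac differed. No ligand gene was called: of 19 SEACR peaks over 7 genes, limma called 0, with 1 at an unadjusted p under 0.05 (7.71% of all H3K27ac peaks), and limma without trend and robust also called 0. Of all H3K27ac SEACR peaks 0.155% were called higher and 0.0448% lower. The median change of the 19 peaks was 0.15, against 0.11 over all H3K27ac peaks. Both AA libraries lay above both vehicle libraries at 5 of the 19 and below at 3, against 28.5% and 10.7% of all peaks. In the MACS2 set H3K27ac peaks were at Btc, Hbegf and Egf, and limma called none of the 3 and 0 of all 9817 peaks (694, or 7.07%, at an unadjusted p under 0.05, none of them at a ligand gene).

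At Ereg the H3K27ac score was 0.288 and 0.274 in AA and 0.258 and 0.235 in vehicle, a change of 0.15 ± 0.20 (SE, limma adjusted p = 0.862). Areg had 0.335 and 0.245 in AA and 0.339 and 0.193 in vehicle (0.13 ± 0.20, SE; limma adjusted p = 0.880), so the groups overlapped. The H3K27ac scores at the 2 genes with the largest H3K4me3 changes thus differed by less than 1 SE, at an unscaled coverage of 2.67 to 4.04 per base.

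In the SEACR set Btc had the strongest H3K27ac peak among the ligand genes, from 91402254 to 91403681, with 0.577 and 0.491 in AA and 0.414 and 0.376 in vehicle. Its change of 0.38 ± 0.14 (SE, limma adjusted p = 0.416) was the one at an unadjusted p under 0.05. Hbegf scored 0.466 and 0.362 in AA and 0.338 and 0.343 in vehicle (0.23 ± 0.16, SE; limma adjusted p = 0.766). In the MACS2 set Hbegf was the stronger, with 1.27 and 1.04 in AA and 0.915 and 0.659 in vehicle (limma adjusted p = 0.676), and Btc had 0.939 and 0.940 in AA and 0.676 and 0.616 in vehicle (limma adjusted p = 0.692).

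Tgfa had 7 H3K27ac peaks, 1 at its start and 6 along the gene. The strongest, 22796 bp from the start (86218018 to 86220848), scored 0.272 and 0.273 in AA and 0.183 and 0.215 in vehicle (0.35 ± 0.23, SE; limma adjusted p = 0.747). At the Tgfa start the scores were 0.251 and 0.103 in AA and 0.174 and 0.194 in vehicle, and the groups overlapped. The H3K27ac peak of Epgn lies at its upper-coordinate end, 7454 bp from the annotated start, and scored 0.240 and 0.196 in AA and 0.203 and 0.188 in vehicle (limma adjusted p = 0.913). Nrg1 had no H3K27ac peak in either set.

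**Figure D4:**
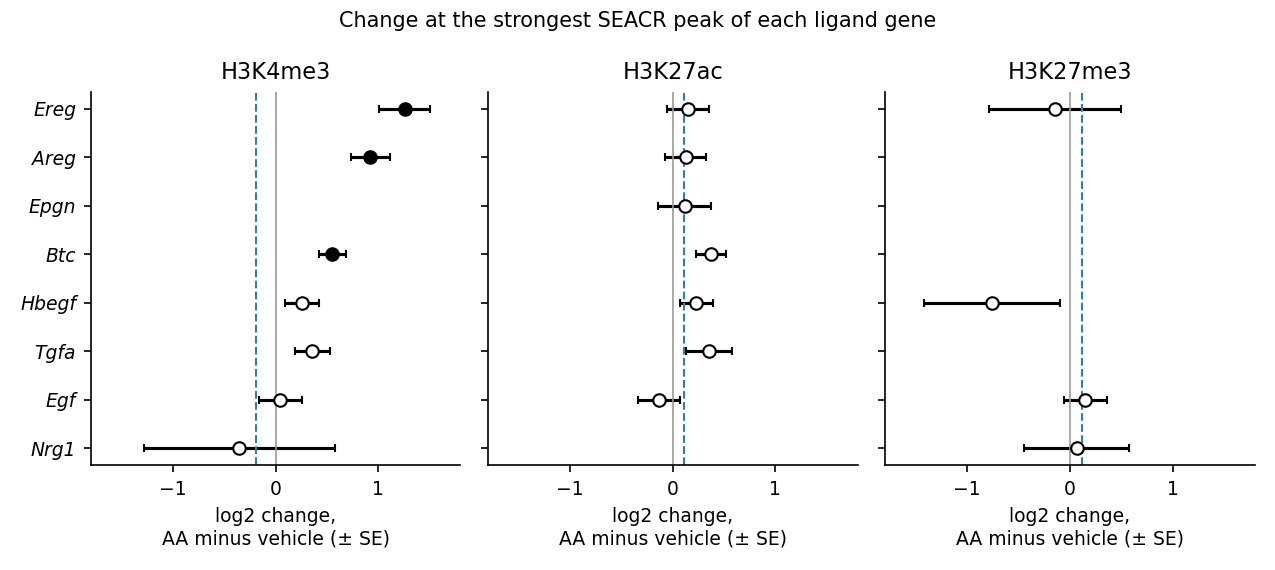
Log2 change, AA minus vehicle (± SE), at the strongest SEACR peak of each ligand gene in H3K4me3, H3K27ac and H3K27me3. Filled points passed the limma adjusted p of 0.05, the dashed line is the median of all peaks of the mark, and a gene without a point has no peak. Only H3K4me3 at Ereg, Areg and Btc passed.

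The third comparison asked where H3K27me3 differed. The mark was found at 4 ligand genes, with 10 of 16 peaks at Egf, 3 at Nrg1, 2 at Hbegf and 1 at Ereg. Areg, Epgn, Btc and Tgfa had no H3K27me3 peak, and no ligand gene had one in the MACS2 set. Limma called 0 of the 16, with 3 at an unadjusted p under 0.05 (9.39% of all H3K27me3 peaks), and limma without trend and robust also called 0. Of all H3K27me3 peaks 0.498% were called higher and 0.0475% lower. The median change of the 16 was -0.16, against 0.12 over all peaks, and the groups did not overlap at 3 with AA higher and 4 with AA lower, against 26.3% and 13.4% of all peaks. Replicates of this mark agreed poorly over all SEACR peaks, with a Spearman correlation of 0.29 between the AA libraries and 0.19 between the vehicle libraries. Between an AA and a vehicle library it was 0.12 to 0.23, so the scores of single peaks below are uncertain.

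At Ereg the single H3K27me3 peak, inside the gene, scored 0.0354 and 0.0213 in AA and 0.0437 and 0.0261 in vehicle and ranked in the lowest bin of 10 by level. Hbegf had 0.0451 and 0.0473 in AA and 0.101 and 0.112 in vehicle at the gene end, where H3K4me3 also lies, and 0.0846 and 0.0316 in AA and 0.147 and 0.0871 in vehicle just inside. Both AA libraries were below both vehicle libraries at each Hbegf peak, and neither passed (limma adjusted p = 0.756 and 0.766). Unscaled coverage there was at most 2.53 per base.

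Egf, the gene of epidermal growth factor itself, on chromosome 3 from 129677574 to 129755322, carried all 3 marks. It has 2 annotated starts 30.2 kb apart, both on the minus strand, and their promoters are shown because H3K27ac had a peak at the internal start and none at the first; neither sequence holds a motif of those searched, so neither has capitals.
Egf, first start, chr3:129755273-129755572, minus strand: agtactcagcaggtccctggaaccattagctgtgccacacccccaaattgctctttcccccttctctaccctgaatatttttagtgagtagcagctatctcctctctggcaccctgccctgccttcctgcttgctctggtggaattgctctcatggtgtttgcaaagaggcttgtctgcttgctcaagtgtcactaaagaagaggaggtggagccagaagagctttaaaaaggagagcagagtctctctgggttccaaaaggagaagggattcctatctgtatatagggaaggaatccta
Egf, internal start, chr3:129725037-129725336, minus strand: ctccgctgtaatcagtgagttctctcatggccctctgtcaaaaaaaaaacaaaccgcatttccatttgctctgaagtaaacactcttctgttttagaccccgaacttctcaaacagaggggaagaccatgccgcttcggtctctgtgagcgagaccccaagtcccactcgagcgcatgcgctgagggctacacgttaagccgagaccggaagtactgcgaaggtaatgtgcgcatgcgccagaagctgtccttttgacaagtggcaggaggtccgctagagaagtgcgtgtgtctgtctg

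The promoter at the first start has 0 CpG dinucleotides and that at the internal start has 17. At the internal start the H3K4me3 score was 0.485 and 0.614 in AA and 0.491 and 0.569 in vehicle, a change of 0.05 ± 0.21 (SE, limma adjusted p = 0.924). The only H3K27ac peak of Egf lies there too, with 0.233 and 0.267 in AA and 0.179 and 0.423 in vehicle (limma adjusted p = 0.874).

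At the first start the H3K4me3 score was lower in level, 0.212 and 0.216 in AA and 0.413 and 0.333 in vehicle. Both AA libraries lay below both vehicle libraries, and the change of -0.73 ± 0.30 (SE) did not pass (limma adjusted p = 0.174). It was called lower without AA replicate 1 (-0.71, limma adjusted p = 0.0170) and without AA replicate 2 (-0.74, limma adjusted p = 0.0205), where 14.5% and 15.2% of all H3K4me3 peaks were called. MACS2 gave 0.268 and 0.381 in AA and 0.651 and 0.536 in vehicle there (limma adjusted p = 0.279). A further H3K4me3 MACS2 peak inside Egf, from 129736507 to 129736793, scored 0.456 and 0.196 in AA and 0.867 and 0.742 in vehicle (-1.03 ± 0.35, SE; limma adjusted p = 0.0731). That peak was called lower after centring (-0.99, limma adjusted p = 0.0438) and without AA replicate 1 (-1.43, limma adjusted p = 0.0140). Unscaled coverage at the first start was 1.94 and 2.13 per base in AA and 8.04 and 4.37 in vehicle.

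H3K27me3 was spread from the first start to the internal one in 10 peaks, and no further peak lay downstream of the internal start. The strongest, at the first start (129754151 to 129757140), scored 0.244 and 0.167 in AA and 0.154 and 0.207 in vehicle, a change of 0.15 ± 0.21 (SE, limma adjusted p = 0.865), and overlaps the H3K4me3 peak of that start. At the internal start H3K27me3 was 0.0208 and 0.0374 in AA and 0.0905 and 0.209 in vehicle (-1.49 ± 0.70, SE; limma adjusted p = 0.484). Between the starts, the peak from 129748036 to 129748874 scored 0.276 and 0.138 in AA and 0.0424 and 0.0610 in vehicle (1.45 ± 0.52, SE; limma adjusted p = 0.268), and the peak from 129729169 to 129731737 scored 0.212 and 0.191 in AA and 0.0767 and 0.116 in vehicle (0.87 ± 0.35, SE; limma adjusted p = 0.352). Those 3 are the ligand gene peaks at an unadjusted p under 0.05, 2 higher and 1 lower in AA.

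**Figure D5:**
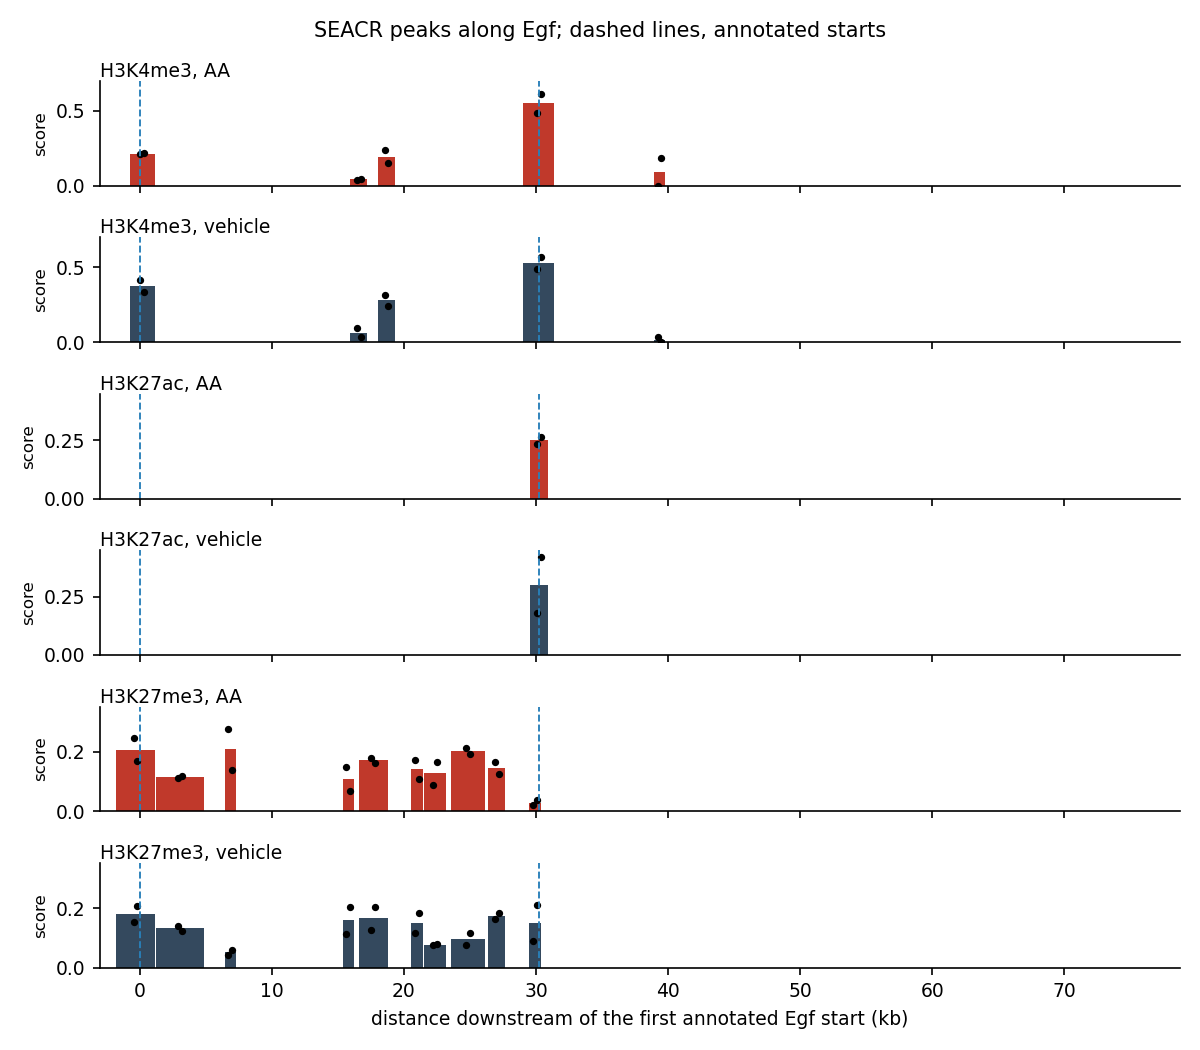
Scores of the SEACR peaks along Egf against the distance in kb downstream of its first annotated start, for the 3 marks, AA in red above vehicle in blue. Bars are means of 2 libraries with the peak's length as width, points are single libraries and dashed lines the 2 annotated starts. H3K27ac is at the internal start, H3K4me3 at both starts and weakly elsewhere, and H3K27me3 from the first start to the internal one.

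Nrg1 had 3 H3K27me3 peaks, the strongest with 0.148 and 0.0824 in AA and 0.1002 and 0.110 in vehicle (32881982 to 32883609; limma adjusted p = 0.981). The groups overlapped at all 3.

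The other genes of the pathway were read at the strongest SEACR peak of each gene, in 6 lists with 60 genes in all. These lists were also chosen with earlier results of these data known, so the shares called are descriptions. In H3K4me3, 8 of 60 were called higher and 0 lower by limma (13.3%, against 5.36% of all genes called higher and 1.36% lower), with a median change of 0.26 against 0.19 over all genes. For comparison, 10.4% of all peaks in bin 10 by level were called higher. Nrg4, which encodes a ligand of ERBB4, had the largest change among the called genes, with 0.379 and 0.498 in AA and 0.218 and 0.175 in vehicle (1.06 ± 0.29, SE; limma adjusted p = 0.0214). Hras, the gene of a GTPase that relays the signal, rose by 0.62, Fos, a gene that growth factors induce, by 0.56, Spry2, the gene of a feedback inhibitor, by 0.56, Akt1, the gene of a survival kinase, by 0.53, and Cblb, the gene of a ubiquitin ligase, by 0.52.

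By list, those called higher were 1 of 4 receptor genes, 1 of 3 further neuregulin genes and 2 of 16 negative regulators. They were 3 of 17 adaptors and kinases, 1 of 13 EGF-responsive targets and 0 of 7 genes for ligand shedding. Called or not, 57 of the 60 genes had a change above 0, as did 68.45% of all H3K4me3 peaks in bin 9 by level and 93.66% in bin 10. The 8 calls were kept without AA replicate 1 or 2, but 4 were left after quantile normalization, and 0 without vehicle replicate 1 or 2 or without trend and robust (limma adjusted p from 0.459 to 0.884). The receptor gene was Egfr, named here after its values were seen, with 1.43 and 1.21 in AA and 0.939 and 0.918 in vehicle (0.49 ± 0.14, SE; limma adjusted p = 0.0231). Erbb3 had 1.63 and 1.13 in AA and 1.15 and 1.05 in vehicle (limma adjusted p = 0.201), and Erbb2 1.01 and 0.715 in AA and 0.759 and 0.795 in vehicle (limma adjusted p = 0.714). Limma called 0 of 58 pathway genes in H3K27ac (9 at an unadjusted p under 0.05, against 12.8% of all genes) and 0 of 25 in H3K27me3 (3 at an unadjusted p under 0.05, against 20% of all genes).

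Among the gene values most like those of Ereg, taken as the length-weighted mean over all SEACR peaks of a gene on the log2(score + pseudocount) scale and centred within each mark, were those of Fchsd2 (Pearson's r = 0.93), Vangl1 (0.91), Nid1 (0.90) and Mecom (0.90), out of 6431 genes with a peak in all 3 marks. The points are 12 libraries, 4 per mark, which share their scaling factors over all genes, so these are descriptions with no test. On this scale Ereg changed by 1.19 in H3K4me3, 0.06 in H3K27ac and -0.15 in H3K27me3, so H3K4me3 weighs most in r. The H3K4me3 changes were 0.39 at Fchsd2, 0.60 at Vangl1, 1.91 at Nid1 and 0.29 at Mecom. In H3K27ac those 4 genes changed by 0.11, 0.11, -0.25 and 0.07. Over the same libraries r with Ereg was 0.41 for Hbegf and -0.38 for Egf, the only other ligand genes with a peak in all 3 marks.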

How the data were processed

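Peak scores of 12 CUT&RUN libraries were analysed, 2 for each mark and treatment. The deposited scores are a signal, scaled by the authors with a method not given in the sources used here. Multiplied by the peak length, at least 99.99% of the SEACR scores below 1000 steps came within 0.1 step of a whole number of steps, with 1 step size for each library, which makes them a mean coverage per base; dividing by that step gave the unscaled coverage. The submitters' processing notes name SEACR, MACS2 and mm10, without versions. No aligner is named, nor whether libraries were pooled to call peaks. Table rows named control belong to no other labelled group than vehicle and were read as such.

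The scores were taken to log2(score + pseudocount) and fitted with limma 3.58.1 (R 4.3.3; trend and robust), AA minus vehicle, on all SEACR peaks of a mark at the deposited scaling. P-values were adjusted over those peaks (Benjamini-Hochberg) and called below 0.05. As pseudocount each mark had percentile 5 of its scores above 0, which is 0.0253 for H3K4me3, 0.0693 for H3K27ac and 0.0329 for H3K27me3, so changes of weak peaks are understated. MACS2 peaks were fitted alike. The fit was tested on simulated data, where the false share of its calls exceeded the threshold for all 3 marks. With 2 libraries against 2 an exact permutation test cannot go below p = 0.333, so none was used.

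Spans, starts and promoters are RefSeq's on GRCm38.p6, with promoters printed or searched for 5 of the 8 genes. The span table gives no strand, so gene ends are named by coordinate. Named are each gene's strongest peak, the peak at its start, peaks called or far apart, and the 6 largest called changes of the pathway lists. Members and lists were chosen with earlier results of these data known. A few genes that these rules name are not reported here. Alternatives are given at the end.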

Additional observations from a re-analysis of the deposited data

How the results depend on the processing

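The 3 H3K4me3 changes called at ligand genes kept their direction under every alternative run, but most of these runs could not have turned it. Both AA libraries lay above both vehicle libraries at each of the 3 SEACR peaks, so leaving out 1 library cannot turn the sign. Limma without trend and robust, the replicate block and the stricter adjusted p leave the changes as they were. In numbers, the H3K4me3 calls over all SEACR peaks, 1710, became 6106 after centring, 0 without trend and robust, 540 at an adjusted p of 0.01, and from 32 to 8903 when 1 library was left out. The 3 calls at ligand genes, all higher, became 5 higher after centring, 0 without trend and robust, and from 0 to 6 when 1 library was left out, of which 1 of 4 (without AA replicate 1) and 1 of 6 (without AA replicate 2) was lower, the first start of Egf. The 4 MACS2 calls at ligand genes, all higher, became 6 after centring, 2 after quantile normalization, 0 without trend and robust, and from 0 to 7 when 1 library was left out, settings added after the data were seen; 1 of the 6 and 1 of 5 without AA replicate 1 was lower, a peak inside Egf. For H3K27ac, 125 calls over all peaks became 0 above the median score, 0 without trend and robust, 0 with MACS2 peaks, 54 at an adjusted p of 0.01, 280 with the replicate block, and from 0 to 120 with 1 library left out. For H3K27me3, 574 calls became 79 after centring, 164 after quantile normalization, 0 without trend and robust, 253 at an adjusted p of 0.01, 10 with MACS2 peaks, and from 44 to 90 with 1 library left out. No ligand gene peak was called in H3K27ac or H3K27me3 under any of these. The cause of these differences was not tested.

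Same-numbered libraries did not deviate together (r = -0.00228 for H3K4me3, 0.00853 for H3K27ac and 0.00247 for H3K27me3), so the numbers were not taken to pair them. The replicate block gave 2522 H3K4me3 calls, 3 of them at ligand genes, and 857 H3K27me3 calls. Centring raised the higher share of the H3K4me3 calls, with 5557 of 6106 higher against 904 of 1710, and the 2 further calls were Hbegf and Tgfa.

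Directions turned only at values that never passed, among the strongest peaks of the genes. For Egf these were H3K4me3 of -0.013 (quantile), -0.19 (mean over all peaks) and -0.12 to 0.21 with 1 library left out, H3K27ac of -0.63 to 0.36 with 1 left out, and H3K27me3 of -0.059 (quantile) and -0.084 to 0.39 with 1 left out. For Nrg1 they were H3K4me3 of 0.023 (quantile) and -0.89 to 0.18 with 1 left out, and H3K27me3 of -0.046 (centred), -0.053 (quantile), -0.20 (mean over all peaks) and -0.26 to 0.39 with 1 left out. H3K27ac at Areg ran from -0.20 to 0.45 and H3K27me3 at Ereg from -0.33 to 0.042 with 1 left out. A single library left in a group was assumed to vary like those of the other group. H3K27me3 at the ligand genes has no MACS2 value. Depth limits the weak peaks, such as the Nrg1 ones.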
